A study of Homo sapiens with 9 samples.

Results

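Long intergenic noncoding RNAs (lincRNAs) are defined as transcripts that lie apart from protein-coding exons and are not translated. The 120 examined here, taken by their annotated biotype, were the best detected ones in a pancreatic cancer cell line. They were the genes of lincRNA biotype with at least 50 raw counts in at least 3 of 9 libraries, without the small nucleolar RNA hosts named SNHG and without GAS5, ZFAS1, DANCR and EPB41L4A-AS1. The table held 58735 genes, of which 7629 were lincRNA genes and 2683 of these had a count in at least 1 library. Before the named exclusions 125 passed, and 5 of them were excluded. The line, called MIA PaCa-2, comes from a human pancreatic carcinoma, and the labels give its genotype as WT. RNA was measured by sequencing after 24 h with 0.1% DMSO, with 1 μM SCH772984, an inhibitor of the kinases ERK1 and ERK2, or with 1 μM compound 1, an inhibitor of TBK1 and IKKε, in 3 libraries per condition. The series asks which genes respond to each inhibitor, so each inhibitor was compared with DMSO and with the other. Nothing in the labels ties the libraries of a condition to separate cultures, so p-values measure only the spread between these samples. In RNA from whole cultures, fewer cells that make an RNA and less of it per cell cannot be told apart.

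Some of these RNAs are among the best studied in the cell. MALAT1 is kept in the nucleus at speckles, where splicing factors collect, and NEAT1 is the RNA scaffold on which paraspeckles are built. NORAD binds Pumilio proteins in the cytoplasm, FTX lies in the X inactivation centre, and several others are precursors from which microRNAs are cut, while many lincRNAs start back to back with a protein-coding gene and share its promoter region. ERK signalling acts on transcription factors of the ETS and AP-1 families, among others.

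Libraries held between 9464432 and 13887859 counts, and the 3 SCH772984 libraries were the deepest. As a check of the labels, all 9 genes of a list of known ERK outputs fell with SCH772984, among them SPRY4 (log2 fold change -6.81 ± 0.11, standard error) and ETV5 (-6.54 ± 0.15), and none was called with compound 1. The line's epithelial keratins KRT8, KRT18 and KRT19 were present in every library, EPCAM was at 0 counts in all 9 and CDH1 at 0 to 5. Of 3 genes of mesenchymal features, VIM had 21970 to 28788 counts, ZEB1 244 to 396 and CDH2 at most 1. VIM and ZEB1 were lower with SCH772984, at log2 fold changes of -0.23 ± 0.06 and -0.61 ± 0.11. The 4 acinar markers had no count, and the 4 immune markers together had 0 to 13 counts in a library. Of the 4 fibroblast markers DCN and LUM had at most 1 count. COL1A2 had 4146 to 4941 counts with DMSO or compound 1 and 12081 to 14662 with SCH772984, and COL1A1 had 1 to 4 and 28 to 48. The endothelial marker CDH5 had 28 to 63 counts without SCH772984 and 0 to 4 with it, with PECAM1 at 0 or 1, and KRT8 and KRT18 were lower with SCH772984. The part of these shifts in the results that follow was not tested. Compound 1 replicate 1 stood apart from the other compound 1 libraries, with a chi-square per degree of freedom of 11.1 and 8.29 to them against 2.78 between those. The share of counts from the mitochondrial genome was 3.33% to 3.98% with DMSO, 3.41% to 3.92% with compound 1 and 6.23% to 7.52% with SCH772984, and its part in the results that follow was not tested.

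The sequences that bear on the results are shown first. In the RefSeq table used here (GRCh38.p14), which is not complete, 33 mature microRNAs were matched within 10 of the 120 lincRNA genes on the same strand. A selection is shown, with seeds (bases 2 to 8) in capitals: those whose seeds link members to each other, and some of those in MIR222HG, MIR22HG, FTX and MIR193BHG, whose values are given further on. CYTOR and MIR4435-2HG, genes on chromosome 2 that arose as copies, each hold the same mature miR-4435. miR-221-3p and miR-222-3p in MIR222HG share the seed GCUACAU, and let-7i-5p in AC048341.1 shares the seed GAGGUAG with let-7a-5p and let-7b-5p in MIRLET7BHG.
hsa-miR-4435 in CYTOR: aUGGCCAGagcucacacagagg
hsa-miR-4435 in MIR4435-2HG: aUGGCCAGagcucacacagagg
hsa-miR-221-3p in MIR222HG: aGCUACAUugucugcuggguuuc
hsa-miR-222-3p in MIR222HG: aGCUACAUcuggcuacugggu
hsa-let-7i-5p in AC048341.1: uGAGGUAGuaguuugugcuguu
hsa-let-7a-5p in MIRLET7BHG: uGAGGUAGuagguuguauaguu
hsa-let-7b-5p in MIRLET7BHG: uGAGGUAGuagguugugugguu
hsa-miR-22-3p in MIR22HG: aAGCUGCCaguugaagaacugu
hsa-miR-374b-5p in FTX: aUAUAAUAcaaccugcuaagug
hsa-miR-545-3p in FTX: uCAGCAAAcauuuauugugugc
hsa-miR-193b-3p in MIR193BHG: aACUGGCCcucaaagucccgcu
hsa-miR-365a-3p in MIR193BHG: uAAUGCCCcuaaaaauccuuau

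RefSeq promoters (250 bases before to 50 after the start) were matched for 53 members, 45 by symbol and 8 by an older symbol, and 34 of these starts lay within 100 bases of the GENCODE start. They were searched on both strands for TGACTCA (AP-1), TGACGTCA (cyclic AMP response element), CACGTG (E-box) and CCGGAAG (ETS), none of which contains another. The ETS letters were in 14 of the 53 (26.4%) and in 10.3% of all 35116 promoters of the table, the AP-1 letters in 4 (7.55%) and in 4.95%, the E-box letters in 4 (7.55%) and in 7.26%, and the cyclic AMP response element in 0 and in 1.85%. Of the 53 members, 37 had at least 50 counts in each of the 3 compound 1 libraries, a selection that makes no use of the SCH772984 and DMSO libraries. Among these 37 the ETS letters were in 3 of 13 that were higher with SCH772984 than with DMSO, 2 of 12 that were lower and 4 of 12 that were not called, and the AP-1 letters in 2 of 13, 2 of 12 and 0 of 12. The 2 that were lower are CYTOR and its near copy MIR4435-2HG, which share sequence around the match and are not independent, and the RefSeq start of MIR4435-2HG lies 28215 bases from its GENCODE start. A match is a description of letters only. The promoters below belong to members described further on, with matches in capitals: PSMG3-AS1 has 3 ETS matches, 2 of which overlap on opposite strands, CYTOR and LINC00346 have 2 AP-1 matches each, EIF3J-DT has 1, NUP50-DT has 1 ETS and 1 E-box match, and HRAT92 has none. The RefSeq start of CYTOR lies 646 bases from its GENCODE start. EIF3J-DT, LINC00346, NUP50-DT, AC125807.2, AC048341.1, LINC01569 and FOXD2-AS1 and the neighbouring genes given for members were chosen for mention after their values were seen.
PSMG3-AS1, chr7:1569823-1570122, plus strand: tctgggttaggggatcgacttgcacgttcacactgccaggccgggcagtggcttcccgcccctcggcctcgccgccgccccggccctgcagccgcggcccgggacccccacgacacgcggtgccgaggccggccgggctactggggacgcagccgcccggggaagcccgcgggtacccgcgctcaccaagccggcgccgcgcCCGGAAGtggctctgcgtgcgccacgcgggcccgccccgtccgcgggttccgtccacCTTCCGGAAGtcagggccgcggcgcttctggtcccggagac
NUP50-DT, chr22:45163732-45164031, minus strand: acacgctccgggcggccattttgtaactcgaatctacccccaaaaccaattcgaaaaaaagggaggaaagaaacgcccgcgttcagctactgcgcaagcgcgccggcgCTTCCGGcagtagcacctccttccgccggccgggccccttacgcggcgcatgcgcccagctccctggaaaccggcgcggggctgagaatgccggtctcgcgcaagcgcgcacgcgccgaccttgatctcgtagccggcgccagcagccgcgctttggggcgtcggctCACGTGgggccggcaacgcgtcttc
EIF3J-DT, chr15:44536874-44537173, minus strand: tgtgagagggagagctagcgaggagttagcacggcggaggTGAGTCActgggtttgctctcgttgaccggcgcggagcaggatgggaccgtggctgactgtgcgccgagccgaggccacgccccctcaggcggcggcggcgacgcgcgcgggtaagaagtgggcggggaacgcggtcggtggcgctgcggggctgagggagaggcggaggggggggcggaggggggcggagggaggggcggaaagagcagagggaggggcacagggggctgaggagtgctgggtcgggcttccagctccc
HRAT92, chr7:520141-520440, plus strand: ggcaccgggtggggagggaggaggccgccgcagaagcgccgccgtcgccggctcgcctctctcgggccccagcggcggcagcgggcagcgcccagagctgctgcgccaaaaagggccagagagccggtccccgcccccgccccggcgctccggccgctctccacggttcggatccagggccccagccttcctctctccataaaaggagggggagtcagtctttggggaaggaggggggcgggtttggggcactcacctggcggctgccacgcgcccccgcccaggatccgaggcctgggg
CYTOR, chr2:87455177-87455476, plus strand: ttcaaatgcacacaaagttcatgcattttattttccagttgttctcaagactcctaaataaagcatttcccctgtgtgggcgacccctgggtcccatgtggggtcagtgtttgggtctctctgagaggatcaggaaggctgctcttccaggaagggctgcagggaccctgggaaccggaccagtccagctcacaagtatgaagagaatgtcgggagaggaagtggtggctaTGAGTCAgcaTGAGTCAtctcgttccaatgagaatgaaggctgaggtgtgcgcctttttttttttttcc
LINC00346, chr13:110870259-110870558, minus strand: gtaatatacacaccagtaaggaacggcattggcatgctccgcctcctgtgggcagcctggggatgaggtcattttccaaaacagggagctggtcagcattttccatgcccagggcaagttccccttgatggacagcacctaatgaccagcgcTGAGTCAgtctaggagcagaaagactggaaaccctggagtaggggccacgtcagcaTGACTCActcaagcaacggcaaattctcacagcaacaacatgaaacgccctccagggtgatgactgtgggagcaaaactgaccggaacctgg

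Despite the definition, 26 members lay inside or overlapped a protein-coding gene, and 29 shared exon bases with a gene on the opposite strand. The members were spread over 23 chromosomes, and 50 of them carried only a clone-based name. In 37 of them every annotated transcript had 1 exon. Their levels were modest: the median raw count with DMSO was 71.7, against 367 in the 10428 protein-coding genes over the same threshold, and the median TPM (counts per base of gene length, scaled to the same total in every library) was 8.71 against 25.2. The members' levels were unequal. The 4 highest held 33.6% of the members' summed TPM with DMSO.

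By TPM with DMSO the order was led by LINC02154 (ENSG00000235385, chrX:13266048-13303452, hg38, minus strand) at 275 ± 23.1 (SD, n = 3), followed by BX322234.2 at 247 ± 7.59, NORAD (ENSG00000260032, chr20:36045622-36050960, minus strand) at 165 ± 8.18 and CR392039.3 at 144 ± 12. Each of these 4 was above the next in all 3 DMSO libraries. AC026401.3 stood at 97.3 ± 2.66, AC009414.2 at 79.0 ± 13.1 and UCA1 at 65.0 ± 4.12. AC009414.2 was above UCA1 within each DMSO library, though their ranges over the libraries overlapped. MALAT1, at 20.4 ± 5.31 TPM, and NEAT1, at 9.37 ± 1.35, ranked 31 and 56. The sources used here do not say how RNA was selected for the libraries beyond an mRNA sequencing service, and the mature 3′ ends of MALAT1 and of the long NEAT1 form carry no poly(A) tail. Among these, 56.4% of NORAD's and 78.2% of CR392039.3's 31-base words also occurred in transcripts of other genes, so their counts are less certain. LINC02001, a member under that name, is SNHG30 in RefSeq, so 1 small nucleolar RNA host passed the exclusion by name.

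The share of all counts in the members was 0.156% to 0.176% with DMSO, 0.171% to 0.189% with compound 1 and 0.219% to 0.247% with SCH772984. The SCH772984 libraries were all above the other 6. LINC02154, NEAT1 and MALAT1 made up much of the added share: LINC02154 went from 0.0109% to 0.0130% of counts with DMSO to 0.0289% to 0.0292% with SCH772984, NEAT1 from 0.00503% to 0.00678% to 0.0182% to 0.0258%, and MALAT1 from 0.00415% to 0.00649% to 0.0167% to 0.0227%. NORAD went the other way, from 0.0231% to 0.0255% to 0.0208% to 0.0218%. The remaining 116 members held 0.113% to 0.126% with DMSO and 0.133% to 0.148% with SCH772984. Since the count threshold lets in members through the deeper SCH772984 libraries, the sum over members is a description.

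**Figure D1:**
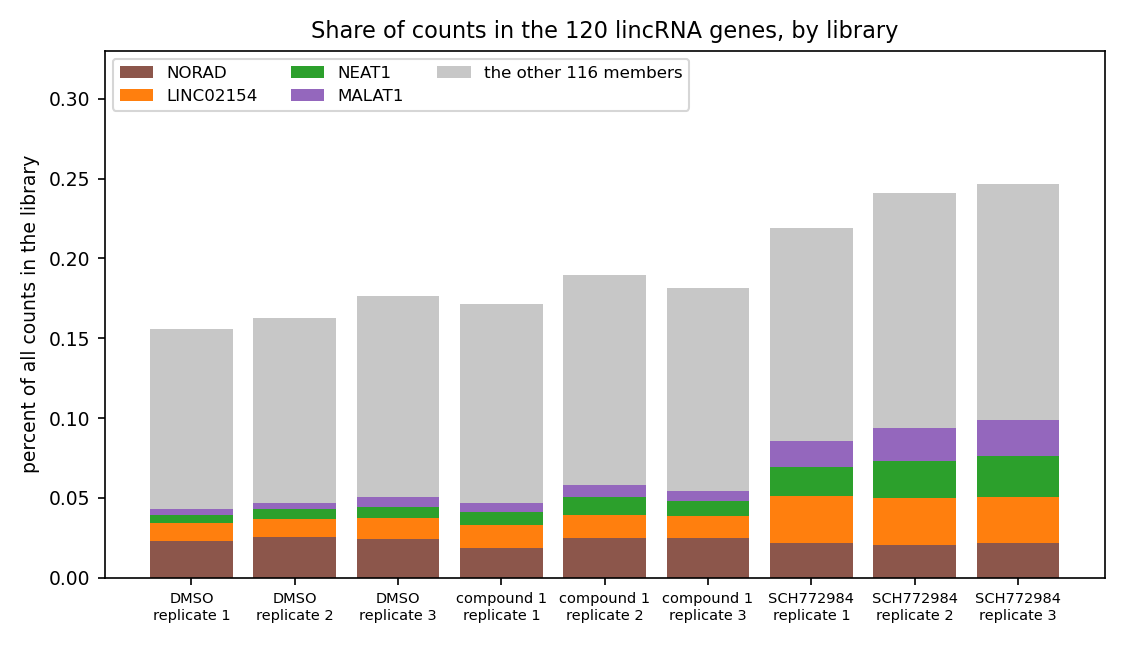
Percent of all counts in each library that fell in the 120 lincRNA genes, stacked into NORAD, LINC02154, NEAT1, MALAT1 and the other 116 members, with one bar per library. The 3 SCH772984 bars reach 0.219% to 0.247%, above the 6 others at 0.156% to 0.189%.

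The threshold itself shaped the comparison. Of the members, 65 had at least 50 counts in all 9 libraries, 28 only in SCH772984 libraries, 7 only in DMSO and compound 1 libraries, and 20 in a mixture. Just inside were AC012615.1 with 50 counts in the library that decided, the one with their 3rd highest count, and LINC00165 and MIRLET7BHG with 51, and just outside were AL121906.2 and LINC00342 with 49 and LINC01010 with 48. Over all 120, 54 members were higher and 30 lower with SCH772984 than with DMSO at an adjusted p below 0.05 (edgeR quasi-likelihood test with Benjamini-Hochberg adjustment over 13834 genes, of which 37.2% were higher and 35.5% lower). Without overlap between the 3 libraries of each condition, 49 were higher and 30 lower, against 38.0% and 36.3% of all genes. Among genes of any biotype over the same count threshold 35.4% were called higher and 41.9% lower. The 28 that passed only with SCH772984 were chosen through the libraries where they are high, so these numbers describe the list and support nothing. Choosing members by the compound 1 libraries, which that comparison does not use, left 81 members with at least 50 counts in each of the 3. Of these 25 were higher and 30 lower, or 30.9% and 37.0%, with a median log2 fold change of -0.08. Of all genes chosen the same way, 30.4% were higher and 46.6% lower, with a median of -0.15. Adjusted p-values of SCH772984 against DMSO are given below only for members among these 81. The other 39 are described by their values, and where a count includes them this is said beside it.

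**Figure D2:**
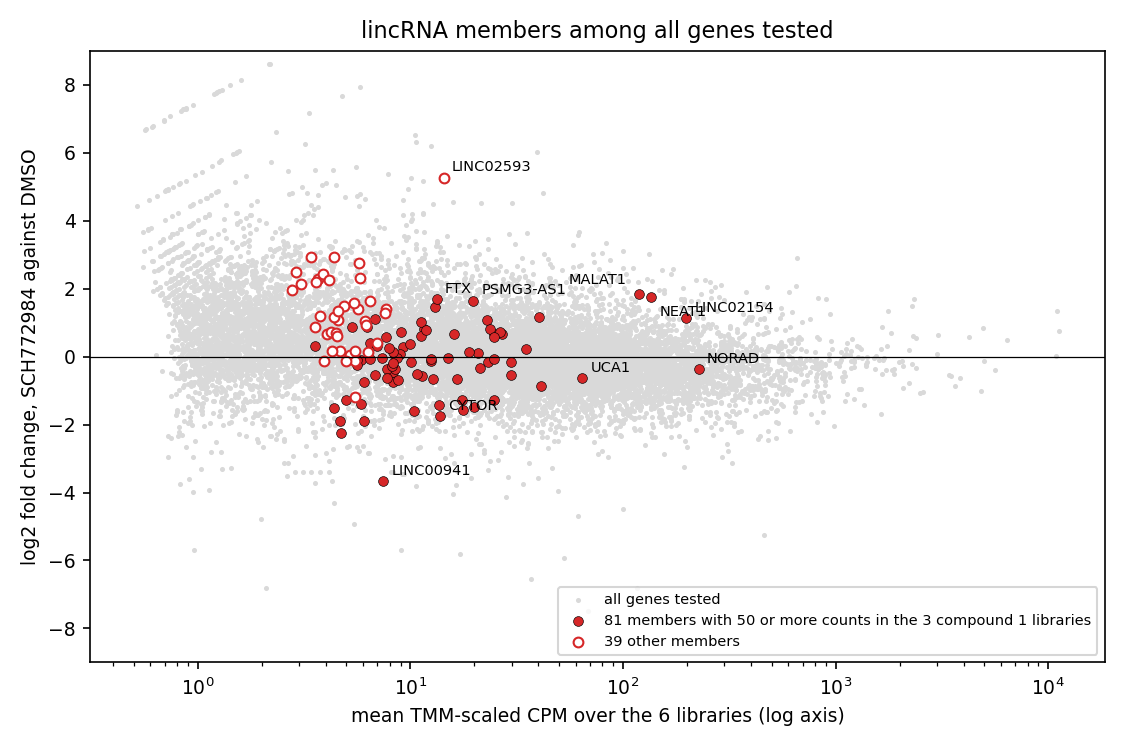
Log2 fold change of SCH772984 against DMSO (y axis) by mean CPM scaled by TMM over the 6 libraries (x axis, log scale) for all genes tested (grey), the 81 members chosen in the compound 1 libraries (filled red) and the 39 others (open red). The open points lie mostly above 0 at low levels, and the filled points lie on both sides, from LINC00941 at -3.66 to MALAT1 at 1.84.

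The nuclear lincRNAs MALAT1 and NEAT1 rose more than 3-fold with ERK inhibition, and NEAT1 was also called with compound 1, a call lost without DMSO replicate 1, DMSO replicate 2 or compound 1 replicate 3 (edgeR, adjusted p = 0.136, 0.128 and 0.0528). MALAT1 (ENSG00000251562, chr11:65497688-65506516, plus strand) had 44.9, 43.8 and 67.2 CPM (counts relative to the library total, scaled by the trimmed mean of M-values, TMM) in DMSO replicates 1, 2 and 3, 56.0, 74.6 and 63.4 with compound 1, and 156, 192 and 212 with SCH772984. The SCH772984 libraries lay apart from the rest, while DMSO and compound 1 overlapped. Its log2 fold change with SCH772984 was 1.84 ± 0.22, a 3.58-fold rise (edgeR, adjusted p = 0.00126), and with compound 1 it was 0.32 ± 0.16 (edgeR, adjusted p = 0.366). NEAT1 (ENSG00000245532, chr11:65422774-65445540, plus strand) had 53, 61.8 and 70.3 CPM with DMSO, 87.7, 115 and 97.3 with compound 1, and 171, 217 and 240 with SCH772984. No 2 of the 3 conditions overlapped. With SCH772984 it rose 3.38-fold, by 1.76 ± 0.16 (edgeR, adjusted p = 5.43e-05), and with compound 1 it rose 1.63-fold, by 0.70 ± 0.12 (edgeR, adjusted p = 0.0139). Against compound 1, SCH772984 was higher by 1.06 ± 0.12 for NEAT1 and by 1.53 ± 0.12 for MALAT1. The other 2 RNAs listed for nuclear architecture, FIRRE and XIST, were not members.

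The mRNAs of proteins that assemble on NEAT1 went the other way, and protein was not measured. All 10 listed genes of paraspeckle proteins were lower in mRNA with SCH772984, with a median log2 fold change of -0.77, where 47.0% of protein-coding genes chosen in the compound 1 libraries were lower and 30.5% higher. The mRNA of NONO, a core paraspeckle component, fell by 0.25 ± 0.06, and DAZAP1 fell by 1.23 ± 0.07. None of the 10 was called with compound 1, where their median was -0.03. Of 19 genes of nuclear RNA decay, which encode the RNA exosome and its adaptors, 15 fell and 2 rose in mRNA with SCH772984, against the same background. The exosome subunits EXOSC4 and EXOSC3 fell by 3.32 ± 0.14 and 1.81 ± 0.12, and the 2 that rose were ZFC3H1, at 0.70 ± 0.09, and RBM7, at 0.33 ± 0.13, both of which link transcripts to the exosome. None of the 19 was called with compound 1. The values stand beside each other, and whether one moves the other was not tested. Of METTL3, METTL14 and ELAC2, which modify or trim noncoding RNA, METTL14 rose by 0.76 ± 0.16 and the others fell.

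**Figure D3:**
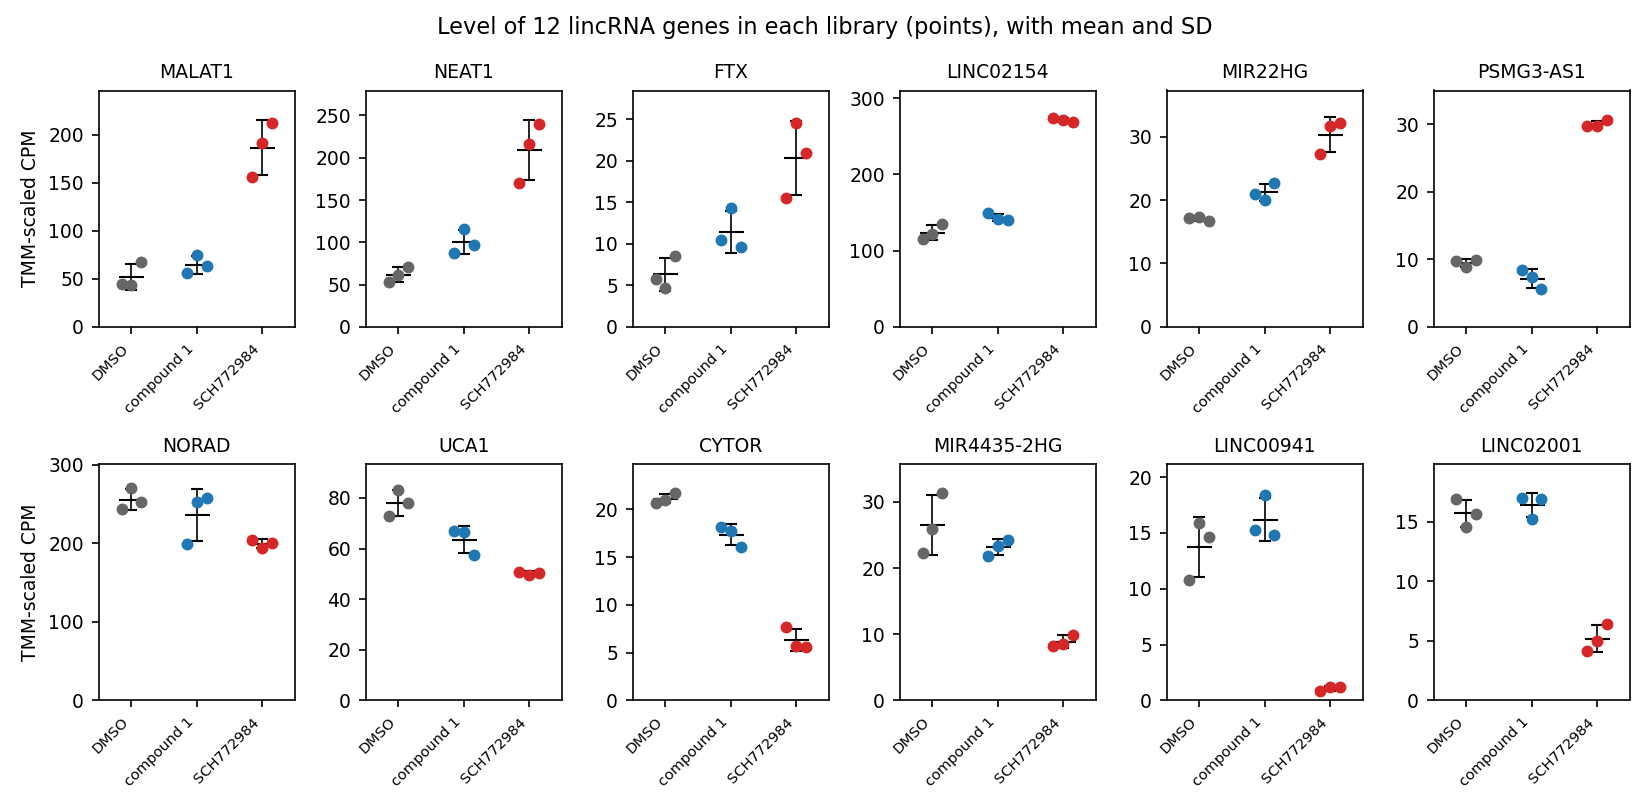
TMM-scaled CPM of 12 lincRNA genes in each of the 9 libraries (points), with the mean and SD of each condition (black). NEAT1 and FTX have 3 separate groups, with SCH772984 highest, and LINC00941 falls to 0.831 to 1.21 CPM with SCH772984.

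FTX (ENSG00000230590, chrX:73946555-74293574, minus strand), which lies beside XIST and hosts miR-374b and miR-545, followed the pattern of NEAT1. Its libraries read 5.74, 4.64 and 8.54 CPM with DMSO, 10.4, 14.3 and 9.56 with compound 1, and 15.5, 24.5 and 20.9 with SCH772984. The 3 conditions did not overlap. It rose 3.21-fold with SCH772984, by 1.68 ± 0.19 (edgeR, adjusted p = 4.03e-09). With compound 1 the difference was 0.86 ± 0.22 (edgeR, adjusted p = 0.0802), which missed the threshold but passed it with DESeq2 and, at 0.92, without compound 1 replicate 1. Genes on the other strand, JPX among them, overlap 44.3% of the exon bases of FTX, and since the strand setting is not given, their reads cannot be told apart from those of FTX.

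The other members that hold microRNAs went both ways. Of the 10 with a match in the RefSeq table, 7 were among the 81, and of these 4 were higher with SCH772984 (FTX, MIR22HG, MIR222HG and MUC20-OT1), 2 were lower (CYTOR and MIR4435-2HG) and MIR137HG was not called, against 30.4% higher and 46.6% lower of all genes chosen in the same way. PVT1, NEAT1, FP236383.1 and FP671120.1, in which GENCODE places microRNA genes that were not matched, are outside this count. MUC20-OT1, named after its values were seen, holds miR-570 and had 20.4, 18.2 and 21.1 CPM with DMSO and 30.1, 36.3 and 33.2 with SCH772984. It shares 24.08% of its exon bases on the same strand, and 31.39% of its 31-base words occur in other genes. MIR22HG, the precursor of miR-22, read 17.1, 17.3 and 16.7 CPM with DMSO, 21.0, 19.9 and 22.7 with compound 1, and 27.2, 31.7 and 32.1 with SCH772984, and rose by 0.83 ± 0.11 (edgeR, adjusted p = 1.04e-08). MIR222HG, the precursor of miR-221 and miR-222, rose by 0.67 ± 0.21 (edgeR, adjusted p = 0.0178), but its SCH772984 libraries at 26.3, 37.1 and 35.6 CPM overlapped the DMSO libraries at 21.0, 14.8 and 26.4, and the call was lost without DMSO replicate 1 or SCH772984 replicate 3. MIR193BHG was over the threshold through SCH772984 libraries, with 1.85, 0.994 and 1.42 CPM against 5.32, 7.85 and 7.45, and is described without a test. Of the let-7 hosts, both outside the 81, AC048341.1, over the threshold in the 3 SCH772984 libraries and in no DMSO library, had 4.0, 4.31 and 4.93 CPM with DMSO and 10.1, 12.5 and 9.80 with SCH772984. MIRLET7BHG had 5.23, 4.86 and 5.69 against 4.07, 3.63 and 6.58, and the difference between the hosts was not tested. MIR137HG differed by -0.08 ± 0.16. Host RNA is measured here, not the mature microRNA.

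A list of 20 lincRNAs was drawn up under the heading of RNA stability and cytoplasmic function. The 5 members on it were all lower with SCH772984: CYTOR, MIR4435-2HG, UCA1, PVT1 and NORAD. The list was chosen with earlier results of these data known, and where these RNAs lie in the cell was not measured. All 5 were among the 81, of which 37.0% were lower, as were 46.6% of all genes chosen in the same way, and CYTOR and MIR4435-2HG share sequence. None of the 5 was called with compound 1. CYTOR (ENSG00000222041, chr2:87454781-87636740, plus strand), known as a cytoskeleton regulator RNA, with the 2 AP-1 matches shown above, had 20.7, 21.0 and 21.7 CPM with DMSO, 18.2, 17.8 and 16.1 with compound 1, and 7.65, 5.74 and 5.64 with SCH772984. It was 3.35-fold lower with SCH772984, at -1.75 ± 0.15 (edgeR, adjusted p = 3.09e-14), and with compound 1 the difference was -0.28 ± 0.11 (edgeR, adjusted p = 0.254). Its near copy MIR4435-2HG (ENSG00000172965, chr2:111036776-111523376, minus strand) had 22.2, 25.9 and 31.3 CPM with DMSO and 8.23, 8.52 and 9.94 with SCH772984, and was 2.97-fold lower, at -1.57 ± 0.14 (edgeR, adjusted p = 8.12e-14). The pair is not independent evidence, because 29.7% of the 31-base words of CYTOR and 32.1% of those of MIR4435-2HG occur in other genes, and each is the gene that shares most with the other.

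UCA1, a cytoplasmic lincRNA described in bladder and other carcinomas, fell with low spread: 73.0, 83.3 and 77.9 CPM with DMSO, 66.8, 66.5 and 57.4 with compound 1, and 50.9, 49.6 and 50.5 with SCH772984. The difference was -0.64 ± 0.08 with SCH772984 (edgeR, adjusted p = 7.05e-10). With compound 1 it was -0.29 ± 0.09 (edgeR, adjusted p = 0.132), with the 3 compound 1 libraries below all DMSO libraries. PVT1, which lies downstream of MYC, fell by 0.51 ± 0.15 with SCH772984 (edgeR, adjusted p = 0.0028). NORAD had 243, 270 and 252 CPM with DMSO and 204, 194 and 200 with SCH772984, and fell by 0.36 ± 0.06 (edgeR, adjusted p = 1.84e-06). PUM2, which encodes a Pumilio protein that NORAD binds, fell by 0.40 ± 0.07. NORAD with compound 1 stood at 198, 252 and 258 CPM, where the low value is that of compound 1 replicate 1.

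The largest fall was that of LINC00941 (ENSG00000285517, chr12:30795458-30879268, plus strand), a lincRNA described in several carcinomas. Another gene entry of the same name overlaps this one on the same strand and holds 6.43% of its 31-base words. The entry described here had 10.8, 15.9 and 14.7 CPM with DMSO, 15.3, 18.4 and 14.9 with compound 1, and 0.831, 1.18 and 1.21 with SCH772984. The SCH772984 libraries lay far below the rest, and the difference was -3.66 ± 0.24, or 12.6-fold lower (edgeR, adjusted p = 2.2e-18). CAPRIN2, its nearest protein-coding gene at 40507 bases, fell by 1.73 ± 0.08. LINC02246 had 7.79, 6.63 and 8.98 CPM with DMSO and 1.08, 2.03 and 1.75 with SCH772984, at -2.26 ± 0.25 (edgeR, adjusted p = 8.85e-11). Its counts are less certain, because 42.75% of its exon bases are shared on the same strand and 41.09% of its 31-base words occur in other genes. LINC02001, the small nucleolar RNA host of chromosome 17, had 16.9, 14.6 and 15.7 CPM with DMSO and 4.16, 4.98 and 6.44 with SCH772984, at -1.59 ± 0.17 (edgeR, adjusted p = 1.67e-11). None of these 3 was called with compound 1, where they differed from DMSO by 0.24 ± 0.16, 0.22 ± 0.17 and 0.06 ± 0.13, in that order.

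Among the highest members, LINC02154 rose and BX322234.2 and AC026401.3 fell with SCH772984. LINC02154 had 115, 121 and 134 CPM with DMSO, 149, 141 and 140 with compound 1, and 274, 271 and 269 with SCH772984. The SCH772984 values differed by less than any other group's, and the rise was 2.19-fold, or 1.13 ± 0.07 (edgeR, adjusted p = 6.59e-20). With compound 1 the difference was 0.21 ± 0.08 (edgeR, adjusted p = 0.2), with no overlap with DMSO. BX322234.2 had 53.9, 54.8 and 51.0 CPM with DMSO and 31.9, 28.2 and 27.7 with SCH772984, a fall by 0.87 ± 0.09. AC009414.2 rose by 0.82 ± 0.16 (edgeR, adjusted p = 1.08e-05), as did its divergent neighbour CRIM1 by 0.49 ± 0.06. CR392039.3 did not pass, at -0.35 ± 0.17 (edgeR, adjusted p = 0.0633).

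The highest members over the threshold only in SCH772984 libraries are described by their values. LINC02593 (ENSG00000223764, chr1:916865-921016, minus strand) had 0.615, 0.994 and 0.547 CPM with DMSO, 1.08, 0.104 and 1.14 with compound 1, and 20.5, 29.6 and 33.8 with SCH772984, a fitted log2 difference of 5.27 ± 0.25. SAMD11, a protein-coding gene 2912 bases away, rose by 6.02 ± 0.17 (edgeR, adjusted p = 1.29e-26). AC087516.2 had 1.54, 1.66 and 1.20 CPM with DMSO and 8.90, 9.62 and 11.5 with SCH772984. LINC02035 had 1.85, 1.88 and 2.08 against 8.98, 10.2 and 9.80, and HRAT92 had 3.08, 3.31 and 3.06 against 6.15, 10.8 and 12.5. AC008014.1 and AC207130.1 were higher by 1.39 ± 0.22 and 1.05 ± 0.20.

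A start of a protein-coding gene lay on the opposite strand within 2000 bases of the start of 40 members. Of these, 25 had a member among the 81. With SCH772984 both genes were called in 14 of the 25: in 6 both were lower, in 2 both were higher, and in 6 the lincRNA was higher and the protein-coding gene lower. In none was the lincRNA lower and the protein-coding gene higher. Of all protein-coding genes chosen in the compound 1 libraries, 30.5% were higher and 47.0% lower. Over all 39 pairs tested both genes were called in 21, and 11 of these had the lincRNA higher and the protein-coding gene lower. However, 5 of the 11 had a member over the threshold only in SCH772984 libraries, where the choice itself favours being higher. Across the 39 pairs Pearson's r of the differences was 0.26 and Spearman's rho 0.16, as a description over pairs that share libraries. No pair had both genes called with compound 1.

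LINC00346, whose promoter holds 2 AP-1 matches as that of CYTOR does, had 8.20, 7.73 and 10.2 CPM with DMSO and 15.9, 15.4 and 13.6 with SCH772984, and rose by 0.77 ± 0.15 (edgeR, adjusted p = 1.73e-05).

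Pairs that moved apart included PSMG3-AS1 and PSMG3, a proteasome assembly chaperone. PSMG3-AS1 (ENSG00000230487, chr7:1570073-1589626, plus strand) had 9.74, 8.83 and 9.96 CPM with DMSO, 8.40, 7.41 and 5.61 with compound 1, and 29.7, 29.7 and 30.5 with SCH772984, a rise by 1.65 ± 0.12 (edgeR, adjusted p = 5.19e-16). PSMG3 fell by 1.00 ± 0.09. EIF3J-DT, which starts 134 bases from the translation initiation factor gene EIF3J, had 4.51, 3.42 and 5.25 CPM against 7.73, 7.51 and 9.13 and rose by 0.88 ± 0.20 (edgeR, adjusted p = 0.000128), while EIF3J fell by 1.25 ± 0.08. RALY-AS1 and ERICD, both over the threshold only with SCH772984, stood at 1.23, 1.33 and 1.31 against 5.24, 5.99 and 6.58 CPM and at 1.03, 0.773 and 0.766 against 5.07, 5.65 and 4.16, while RALY, an RNA-binding protein gene, fell by 0.93 ± 0.06 and AGO2, which encodes an Argonaute protein, fell by 0.64 ± 0.07. NUP50-DT, also such a member, starts 60 bases from the nuclear pore gene NUP50 and stood at 4.10, 3.75 and 2.96 against 5.49, 4.98 and 5.91 CPM, while NUP50 fell by 1.29 ± 0.08.

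Pairs that moved together included FOXD2-AS1 and SH3TC2-DT. FOXD2-AS1 had 28.4, 27.2 and 32.4 CPM with DMSO and 11.8, 10.0 and 9.67 with SCH772984, and fell by 1.49 ± 0.13 (edgeR, adjusted p = 2.29e-14) while FOXD2, a forkhead transcription factor gene, fell by 1.75 ± 0.17. SH3TC2-DT fell by 1.89 ± 0.21 (edgeR, adjusted p = 1.29e-10) and SH3TC2 by 0.48 ± 0.07. HRAT92, which RefSeq calls PDGFA-DT, is over the threshold only in SCH772984 libraries and was higher by 1.64 ± 0.23, and the growth factor gene PDGFA, 95 bases from it, rose by 1.11 ± 0.10. DNAJC3-DT, likewise over it only there, stood 1.97 ± 0.31 higher. Both members were chosen through the libraries where they are high, so these differences carry no test. DNAJC3 rose by 0.68 ± 0.09.

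**Figure D4:**
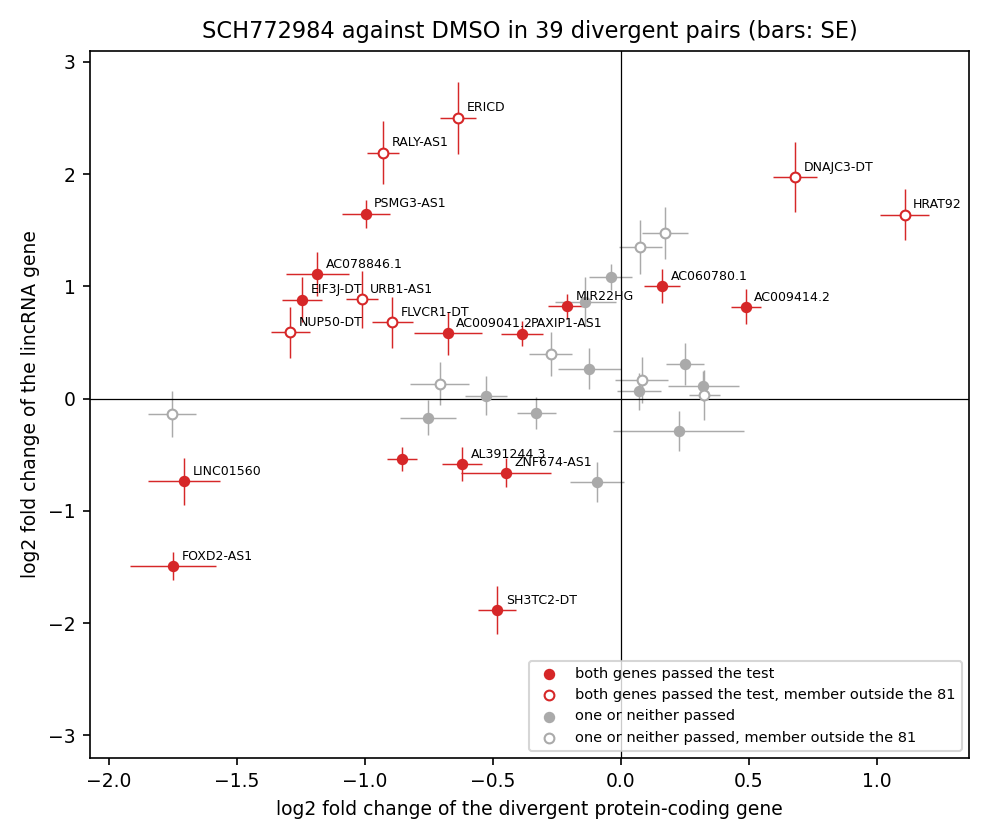
Log2 fold change with SCH772984 against DMSO of 39 lincRNA genes (y axis) and of the protein-coding gene starting on the opposite strand within 2000 bases (x axis), with standard errors. The 21 pairs with both genes called are red, and open circles mark members outside the 81 chosen in the compound 1 libraries. Of the 11 red points in the upper left, where the lincRNA is higher and the protein-coding gene lower, 5 are open.

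For 8 members a protein-coding gene on the same strand ended within 5000 bases upstream, and reads running on from that gene would be counted in the member. Both genes were called in 4 of the 8 with SCH772984, where 37.2% of all genes tested were higher and 35.5% lower: 2 pairs were lower together, AC048341.1 and MON2 were higher together, and LINC01569 was higher while TFAP4 was lower. AC048341.1 and LINC01569 are outside the 81, the first with 50 counts in 1 compound 1 library and the other only in SCH772984 libraries. AC125807.2 lies 764 bases behind TEAD4, a Hippo pathway transcription factor gene. It had 32.2, 37.7 and 35.5 CPM with DMSO and 13.3, 15.6 and 14.8 with SCH772984, at -1.27 ± 0.11 (edgeR, adjusted p = 6.88e-14), and TEAD4 fell by 1.24 ± 0.08. AP001505.1, 1843 bases behind FAM207A, fell by 1.26 ± 0.22 and FAM207A by 1.75 ± 0.10. AC026401.3 lies inside NDE1 on its strand, and they fell by 1.28 ± 0.13 and 1.09 ± 0.08. Whether these counts come from transcripts of their own was not tested.

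With compound 1 the members changed little. Of 117 tested, 3 were higher and 0 lower by edgeR at an adjusted p below 0.05, and 18 were higher and 6 lower at an unadjusted p below 0.05. Among all 12849 genes tested 0.49% were higher and 0.374% lower, and at the unadjusted threshold 7.35% and 7.69%. Among genes over the same count threshold 0.564% were higher and 0.437% lower. Without overlap between libraries 16 members were higher and 9 lower, against 10.3% and 10.6% of all genes. DESeq2 also called 3, of which 2 were the same, and gave AC048341.2 no adjusted p. The members' median was 0.13, against 0.00 for all genes. Choosing members by the SCH772984 libraries instead, which this comparison does not use, left 105 tested, of which NEAT1 and AL390728.6 were higher, or 1.90%, and none was lower, against 0.524% and 0.449% of all genes so chosen.

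The other 2 called members have 1 exon each. AL390728.6 (ENSG00000259865, chr1:247187281-247188526, minus strand) had 6.77, 4.31 and 5.47 CPM with DMSO, 11.4, 10.8 and 9.98 with compound 1, and 5.82, 7.68 and 8.53 with SCH772984, and rose with compound 1 by 0.95 ± 0.19 (edgeR, adjusted p = 0.0312). AC048341.2 (ENSG00000275180, chr12:62603909-62604399, plus strand), which lies just behind the let-7i precursor and inside AC048341.1, had 2.97, 2.32 and 4.27, then 7.97, 7.10 and 6.24, then 2.00, 4.90 and 5.03 CPM. Its difference with compound 1 was 1.15 ± 0.24, given without a test because it is a member through the compound 1 libraries, while AC048341.1 differed by 0.21 ± 0.21. SCH772984 against compound 1 gave -0.54 ± 0.18 and -0.82 ± 0.26 for them, again without a test. The calls of NEAT1 and AL390728.6 depended on the libraries used. Neither passed without DMSO replicate 1, DMSO replicate 2 or compound 1 replicate 3, and only NEAT1 passed without DMSO replicate 3 or compound 1 replicate 2. Without compound 1 replicate 1 both passed, among 7 members higher, a count that includes AC048341.2, and 2 lower. NEAT1 kept a difference of 0.58 to 0.81 over these 6 fits, with adjusted p (edgeR) from 1.68e-05 to 0.136.

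**Figure D5:**
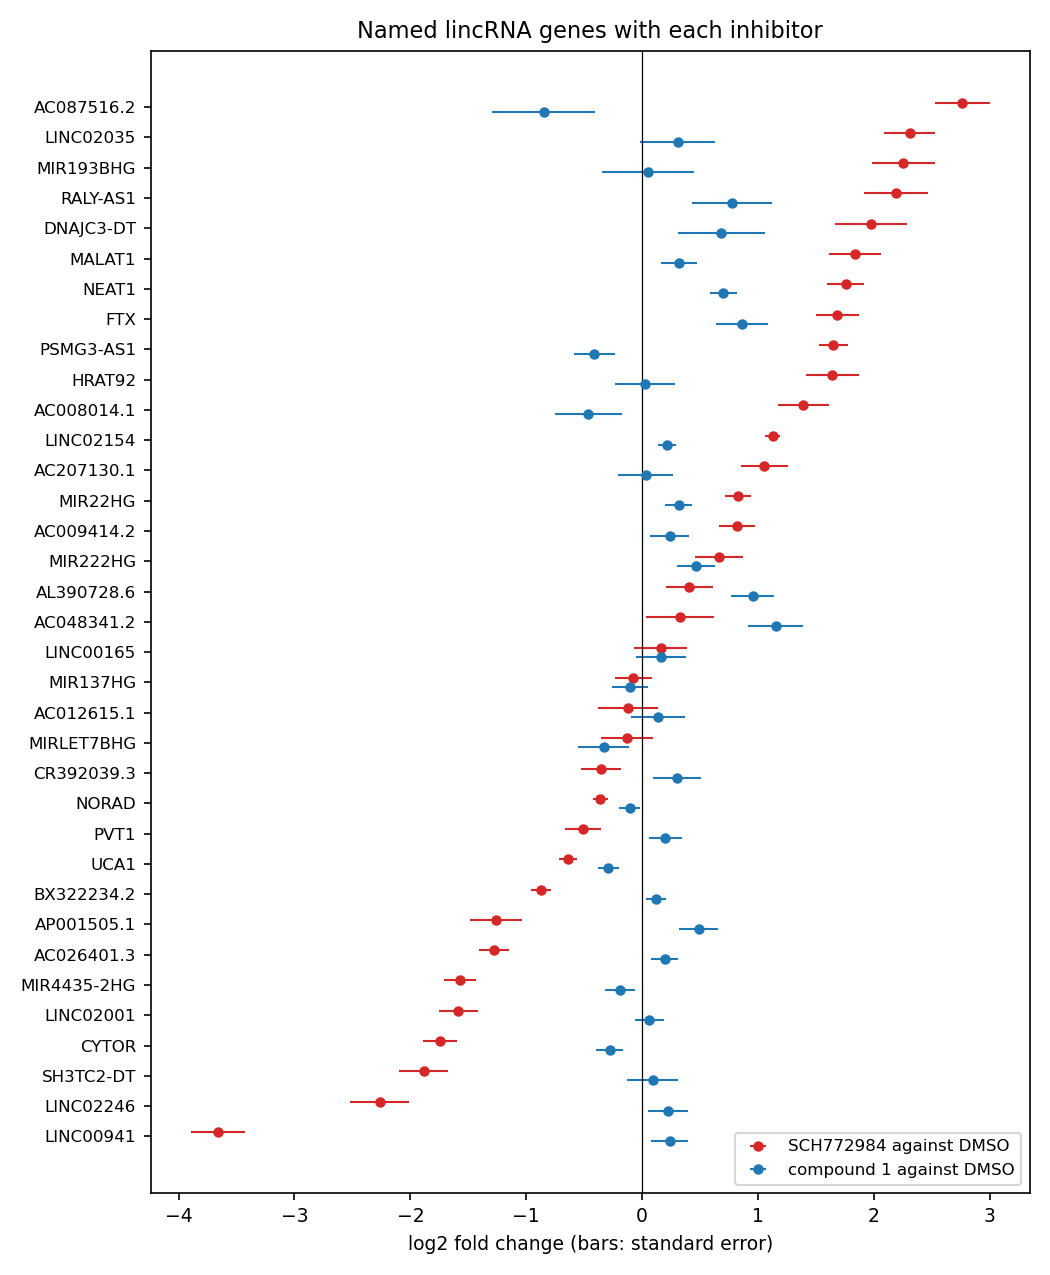
Log2 fold change (x axis) with standard error of 35 named lincRNA genes with SCH772984 (red) and compound 1 (blue) against the same DMSO libraries, ordered by the former. LINC02593, at 5.27, and ERICD, at 2.50, are not drawn because they were not tested with compound 1. Among those drawn, SCH772984 values run from -3.66 to 2.76, and those of compound 1 from -0.85 to 1.15.

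Between the inhibitors, 47 members were higher and 33 lower with SCH772984 than with compound 1 (edgeR, adjusted p below 0.05 over 13863 genes, of which 33.7% were higher and 32.6% lower). Without overlap between libraries 52 were higher and 32 lower, against 35.3% and 34.0% of all genes, and among genes over the same count threshold 32.6% were called higher and 38.2% lower. Chosen by the DMSO libraries, which this comparison does not use, 76 members remained, with 18 higher (23.7%), 30 lower (39.5%) and a median of -0.22. Of all genes so chosen 27.4% were higher and 42.6% lower, with a median of -0.14. LINC00941 was lower by -3.89 ± 0.22, and PSMG3-AS1 was higher by 2.07 ± 0.15. UCA1 and NORAD, at -0.34 ± 0.10 and -0.24 ± 0.10, passed here, but neither did when libraries were scaled by their totals alone. NORAD also missed the threshold without any 1 of the SCH772984 libraries and without compound 1 replicate 2 or 3, at -0.27 to -0.20. The comparisons share libraries, so they are not independent of each other.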

How the data were processed

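RNA from 9 samples of MIA PaCa-2 cells was sequenced and processed by Novogene for the authors. The submitters' processing notes name hg38, HISAT2 2.0.5 and featureCounts 1.5.0-p3, and the strand setting and RNA selection step are not given in the sources used here. The deposited table holds raw counts per gene and library, with gene length and coordinates, which matched GENCODE 29 for all 58735 genes. Groups came from the labels. Members and lists were chosen with earlier results of these data known.

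Counts were fitted with edgeR 4.0.16 (R 4.3.3; TMM scaling, filterByExpr with a minimum count of 10, robust quasi-likelihood test), each comparison on its own 6 libraries, and adjusted by Benjamini-Hochberg over all genes tested. A call is an adjusted p below 0.05. Standard errors derive from the coefficient and its F statistic. The script was tested on simulated data. TPM was computed from the counts and gene lengths. Depth was 9464432 to 13887859 counts per library, so a member at the threshold rests on about 50 reads, and intervals cover counting and library spread only. Shared sequence was measured as 31-base words found in transcripts of other genes.

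Named members were, by rule, the 5 largest rises and falls per comparison among called members with at least 5 CPM and no overlap, the 8 highest by TPM, members on role lists, those called with compound 1, those at the threshold, the 6 highest passing only in SCH772984 libraries and the 5 largest changes with a divergent neighbour. Alternatives were other scalings, filters, fits, DESeq2 1.42.0, thresholds and left-out libraries. Selecting members in libraries outside a comparison, and leaving out members with shared sequence, were chosen after seeing the data. Some results that fall under these rules are not reported here.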

Additional observations from a re-analysis of the deposited data

How the results depend on the processing

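Under the alternatives named above, counts of called members were within 1.5 times of the values given, except as follows. For SCH772984 against DMSO, 54 higher and 30 lower became 33 and 14 at 2-fold or more. The higher became 26 with members at 100 counts in 3 libraries and 25 with members chosen in the compound 1 libraries. For SCH772984 against compound 1, 47 higher and 33 lower became 28 and 13 at 2-fold or more. The higher became 23 at 100 counts and 18 with members chosen in the DMSO libraries. For compound 1 against DMSO, 3 higher became 7 without a filter on low counts, 18 at an unadjusted p and 1 at 2-fold or more, and 0 lower became 6 at an unadjusted p. Leaving out 1 library gave 0 to 7 higher and 0 to 2 lower there. A smaller set, the 65 members over the threshold in all 9 libraries, held 20 higher and 22 lower for SCH772984 against DMSO. It held 17 higher and 23 lower for SCH772984 against compound 1, and 1 higher and 0 lower for compound 1 against DMSO. The cause was not tested beyond the construction of each alternative. The median over members was -0.08 and -0.22 for members chosen in the unused libraries, against 0.19 and 0.04 for SCH772984 against DMSO and against compound 1. With the replicate block, 3 higher with compound 1 became 5, and 83 of 84 and 80 of 80 called members stayed called in the other comparisons. Replicate numbers did not pair the libraries: deviations of same-numbered libraries had correlations between -0.09 and 0.13. Scaling by library totals alone moved the median of all genes by 0.17 for SCH772984 against DMSO and by 0.14 against compound 1, gave 60 higher and 26 lower and 53 higher and 28 lower, and turned no called member to the other sign. DESeq2 left 80 of 84 and 80 of 80. Standard errors of members reached 0.49 for SCH772984 and 0.51 for compound 1 against DMSO.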
